A study of Rattus norvegicus with 4 samples.

Results

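The metabotropic glutamate receptors examined here were Grm2, Grm3, Grm4, Grm5, Grm7 and Grm8 in rat hippocampal neurons kept in primary culture. They were found by gene symbol: each of the 6 had 1 row among the 22714 genes of the input tables, and peaks were taken where the peak lists named one of these genes. By that rule 1 of 8192 m6A peaks of the untreated cultures and 0 of 8183 peaks of the exposed cultures belonged to the receptors.

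The series compared untreated cultures (Ctrl) with cultures that had received bisphenol A (BPA, a building block of plastics that can act on hormone receptors). RNA was sequenced before (input) and after (IP) pull-down with an antibody against m6A, the methylated adenosine most common inside mRNA, which gave 1 library in each of 4 groups: Ctrl_Input and Ctrl_IP from untreated cultures, BPA_Input and BPA_IP from exposed ones. BPA was given, per the labels, at 1 mM for 48 h from day 12 in vitro, with day 13 named as the last day for the BPA_Input sample and day 14 for the BPA_IP sample. All cultures were rat hippocampal neurons, all received the mitotic inhibitor Ara-C, and the labels name no strain, sex or age. No group had a second library, so no test of the exposure was possible, and each interval covers read counting only.

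These receptors are G-protein coupled receptors for glutamate that tune synapses more slowly than the ion channel receptors. Group I receptors, here Grm5, act through Gq and phospholipase C and sit mainly at the rim of the postsynaptic membrane, held there by Homer and Shank scaffolds. Group II (Grm2 and Grm3) and group III (Grm4, Grm7 and Grm8) act through Gi/o proteins, lower cyclic AMP and mostly restrain release from nerve terminals. Grm3 and Grm5 are also made by astrocytes.

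The deposited counts summed to 9837064 for the Ctrl input and to 9774929 for the BPA input. The cultures held neurons and much astrocyte RNA. All 5 neuron markers had counts in both libraries, with summed levels of 800 FPKM (Ctrl) and 843 FPKM (BPA), where FPKM is a fragment count scaled by transcript length and library size. All 9 astrocyte markers did too, with summed levels of 8060 and 7472 FPKM. Markers of the oligodendrocyte lineage summed to 168 and 173 FPKM and those of microglia to 30.3 and 31.5 FPKM. Of the endothelial markers, Cldn5 was at 0 in both libraries and Pecam1 at 0.168 and 0.227 FPKM. Receptor levels below are therefore levels of a mixed culture, and in such bulk RNA fewer cells of a type and less RNA per cell cannot be told apart.

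Grm5 was by far the most abundant of the 6. Its level was 82.9 FPKM in the Ctrl input (95% Poisson interval 80.0 to 85.8) and 79.8 FPKM in the BPA input (77.0 to 82.8). That placed it at or above 95.6% of all genes in the Ctrl library. It made up 65.1% of the summed FPKM of the 6 genes in the Ctrl input and 64.7% in the BPA input. In the files' coordinates its locus spans 560 kb of chromosome 1, from 157535334 to 158095289 on the plus strand.

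Grm7, the receptor of the presynaptic active zone with low affinity for glutamate, came second. It was at 30.8 FPKM (28.7 to 33.0) in the Ctrl input and 31.6 FPKM (29.5 to 33.9) in the BPA input. The level of Grm5 was 2.69 times that of Grm7 in the first library and 2.53 times in the second. Grm7 supplied nearly all of the group III level, which summed to 34.0 and 33.4 FPKM.

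The group II genes were lower. Grm3, which is found on astrocytes as well as neurons, was at 6.88 FPKM (6.01 to 7.82) in the Ctrl input and 6.50 FPKM (5.67 to 7.43) in the BPA input. Grm2, a receptor of glutamatergic terminals that is strong in the dentate gyrus, was at 3.52 FPKM (3.02 to 4.09) and 3.64 FPKM (3.13 to 4.22). Together both made up 8.17% of the summed FPKM of the 6 genes in the Ctrl input and 8.22% in the BPA input.

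At the bottom stood the remaining group III genes. Grm4, a presynaptic receptor best known from cerebellar granule cells, was at 2.49 FPKM (1.95 to 3.15) in the Ctrl input and 1.48 FPKM (1.07 to 2.00) in the BPA input. Grm8, another presynaptic receptor, was at 0.713 FPKM (0.323 to 1.34) and 0.321 FPKM (0.0855 to 0.803). The order Grm5, Grm7, Grm3, Grm2, Grm4, Grm8 held in both libraries. The loci of Grm7 and Grm8 each held 1 further gene row, on the opposite strand and at 0 counts in both libraries. Neighbours in that order were apart beyond their counting intervals, except Grm2 and Grm4, whose intervals overlapped in the Ctrl input and not in the BPA input.

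**Figure D1:**
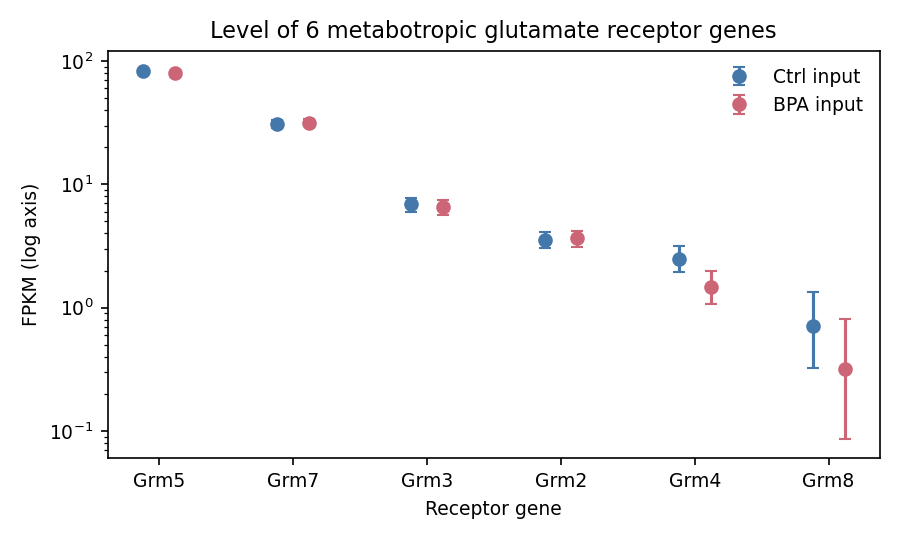
Level of each receptor gene in FPKM on a log axis, with blue points for the Ctrl input, red points for the BPA input and bars for the 95% Poisson interval of the count, 1 library each. Grm5 (82.9 and 79.8 FPKM) stands highest and Grm8 (0.713 and 0.321 FPKM) lowest, and the points of Grm4 lie further apart than those of Grm5, Grm7, Grm3 and Grm2.

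The comparison of the inputs asked whether receptor transcripts differed after exposure. Grm4 was lower in the BPA library, and the 4 most abundant of the 6 genes stood within a few percent of their Ctrl counts. Of the 6 genes, 5 passed a filter (at least 10 counts as the mean of both libraries), and 0 of them differed by 2-fold or more, a size reached by 2.02% of the 13006 genes that passed. A count of 0 among 5 is close to that background. Among the 5, 2 were higher and 3 lower in the BPA library, where 50.4% of all genes that passed were higher and 49.6% lower, with a median log2 ratio of -0.05 against 0.0019 over all genes that passed. Here and below the log2 ratio is log2((BPA + 1)/(Ctrl + 1)) of the counts.

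Grm5 had 3078 counts without and 2966 with BPA. The ratio of BPA over Ctrl was 0.964 (95% binomial interval 0.916 to 1.01), a log2 ratio of -0.05. The central 95% of the 684 genes of like depth, meaning a mean count within 1.5-fold, ran from -0.20 to 0.19.

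Grm7 had 786 counts in the Ctrl input and 807 in the BPA input, a ratio of 1.03 (0.930 to 1.13) and a log2 ratio of 0.04. Grm2 had 172 and 178 counts, a ratio of 1.04 (0.834 to 1.28). Grm3 had 230 and 218 counts, a ratio of 0.946 (0.784 to 1.15). For each of these 3 genes the interval held 1, and the log2 ratio lay inside the central 68% of genes of like depth. That does not show equal levels, since counting alone leaves each ratio uncertain by the width of its interval.

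Grm4 had 70.7 counts in the Ctrl input and 41.9 in the BPA input. The ratio was 0.593 (0.394 to 0.878), a log2 ratio of -0.74. Its interval lay below 1, which was so for 9.37% of all genes that passed the filter. Among 1496 genes of like depth the central 95% of log2 ratios ran from -0.73 to 0.82, so Grm4 stood just below the lower end of that range. On the log2(FPKM + 1) scale the difference was -0.50. The count was 1.69-fold higher in the Ctrl library, under the 2-fold mark.

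Grm8 did not pass the filter, with 9.09 counts in the Ctrl input and 4.09 in the BPA input. The ratio of 0.450 had an interval from 0.10 to 1.59, so no difference was detectable at this depth. Its log2 ratio of -0.99 lay in a range where 30.1% of 864 genes of like depth passed 2-fold.

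**Figure D2:**
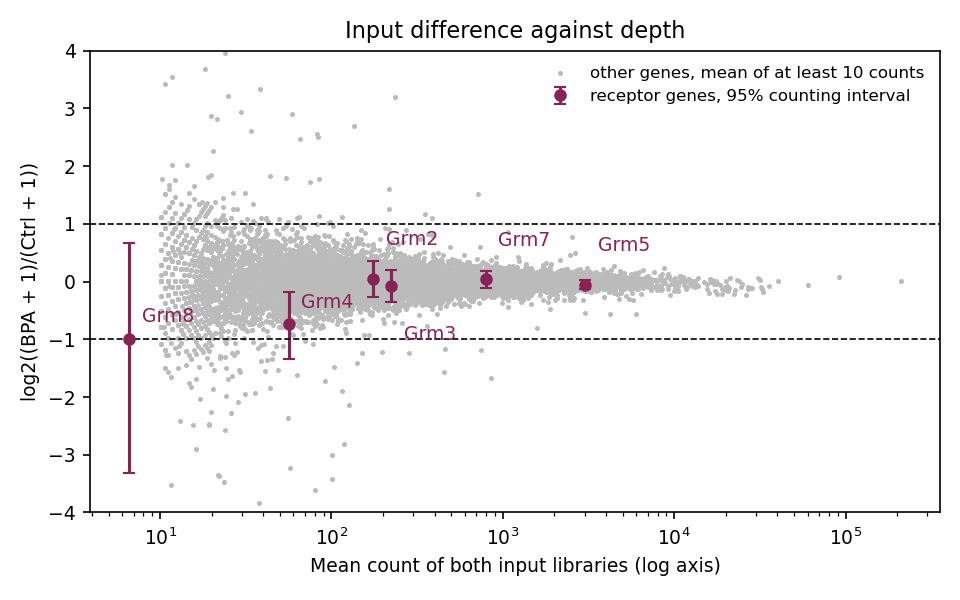
Difference between the inputs, as log2((BPA + 1)/(Ctrl + 1)), against the mean count of both libraries on a log axis. Grey points are other genes that passed the filter (31 of them lie beyond the drawn range of 4 either side), purple points are the receptor genes with 95% counting intervals, and dashed lines mark 2-fold. Grm5, Grm7, Grm3 and Grm2 lie near 0, Grm4 lies at -0.74, and Grm8 has the widest interval.

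Markers of other cell types also differed between the same libraries. The summed level of the 9 astrocyte markers was 7.29% lower in the BPA input, with 8 of 9 lower, beside 49.6% of all genes that passed the filter. The counting interval lay below 1 for 8 of the 9, beside 9.37% of those genes. The 5 neuron markers summed to a level 5.39% higher, with 4 higher and 1 lower, and the interval lay above 1 for 4 of them. The summed level of the 4 glutamatergic markers was 15.9% higher, with 3 of 4 higher and Slc17a6 lower at a ratio of 0.960 (0.842 to 1.10). The 5 GABAergic markers summed to 146 and 132 FPKM, and 4 of them were lower, among them Pvalb with 36.3 and 12.3 counts. Slc32a1 was higher, with 297 and 348 counts and a ratio of 1.17 (1.001 to 1.37). Gad1 and Gad2 were at 0.937 (0.874 to 1.004) and 0.927 (0.847 to 1.02). The vascular and fibroblast markers summed to 49.7 and 58.2 FPKM, nearly all from Col1a1 and Col1a2. Col1a2 had 245 and 527 counts, while Col1a1 had 2782 and 2946, a ratio of 1.06 (1.01 to 1.12). Both endothelial markers were at or near 0, with 3.03 and 4.09 counts for Pecam1 and none for Cldn5. The part of these markers in the receptor values was not tested.

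The peak lists asked where m6A lay and whether sites differed after exposure. Grm5 was the one receptor gene of the 6 with a peak, and the peak stood in the Ctrl list alone. It covered 96 bp of chromosome 1, from 158079527 to 158079622 in the files' coordinates, and was assigned to the transcript ENSRNOT00000022060. Which exon or UTR lies there was not analysed here, since no genome of the files' build was used. The peak lay 544 kb from the start of the locus and 15.7 kb before its end, at 97.2% of its length. Of 7551 Ctrl peaks placed in a locus, 12.1% lay in the last 10% of its length.

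The Grm5 peak was a middling one. Its fold enrichment (IP over input, the authors' value) was 6.15, against a median of 5.92 over the Ctrl list. Its score, which is -10 × log10 of the p-value given by the authors' peak caller, was 36.8 against a median of 35.6. The authors' false discovery rate was 100% for this peak, as for each peak in both lists. The nearest BPA peak on the chromosome was 171905 bp away and was assigned to Ctsc.

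Most Ctrl peaks of like score had a counterpart in the BPA list. Of 1210 Ctrl peaks with a score between 24.5 and 55.1, 20.3% (Wilson 95% interval 18.2 to 22.7) had no overlapping BPA peak, and over the whole Ctrl list 26.7% had none. Of those 1210 peaks, 77 (6.36%) lay in a gene with no BPA peak at all, as the Grm5 peak did. Reads per peak are not given in the lists, so the depth behind the peak is unknown, and whether Grm5 carried m6A below the calling level in the BPA library was not tested.

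Grm2, Grm3, Grm4, Grm7 and Grm8 had no peak in either list. No peak assigned to any other gene lay in their loci or within 20 kb of them either. Among 12246 genes at 1 FPKM or more in each input, 30.4% had a Ctrl peak, 30.9% had a BPA peak and 64.2% had neither, so lack of a peak was the common state. A Ctrl peak without a BPA peak, as in Grm5, was found for 4.97% of those genes, and a BPA peak without a Ctrl peak, found in 0 of the 6 receptors, for 5.43%. The share with a peak depended on the level. Of 1326 genes within 1.5-fold of the Ctrl level of Grm4, 80.6% had a peak in neither list, and of 2666 genes near the level of Grm7, 56.3% had none. Near the level of Grm5, 29.3% of 1037 genes had a peak in both lists and 3.86% in the Ctrl list alone.

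**Figure D3:**
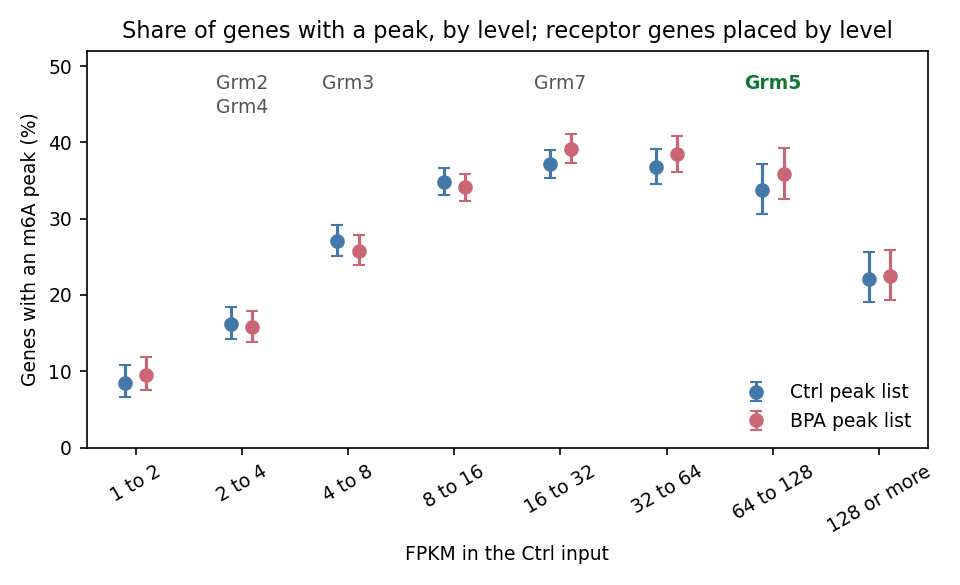
Percent of genes with at least 1 m6A peak, by FPKM in the Ctrl input, with blue points for the Ctrl list, red points for the BPA list and bars for Wilson 95% intervals. Gene names at the top mark the bin of each receptor at 1 FPKM or more; Grm5, in green, was the one with a peak. The share in the Ctrl list was 8.45% in the lowest bin and 37.2% between 16 and 32 FPKM, the bin of Grm7.

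The proteins that carry the receptors' signals were described by 6 lists with 64 names, of which 60 matched a gene row. Grk2 and Tamalin were found under their older names Adrbk1 and Grasp, and Grk3 was not matched. All 60 passed the filter. Of them, 43 were higher (71.7%) and 17 lower in the BPA input, beside the 50.4% of all genes that were higher. The median log2 ratio was 0.03, and 0 of 60 reached 2-fold. The counting interval lay above 1 for 10 of the 60 and below 1 for 4; over all genes 18.7% had an interval that left out 1.

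Among the 12 genes listed for group I receptors, covering Gq coupling, downstream genes and a receptor-binding protein, 8 were higher and 4 lower in the BPA input. Neurochondrin (Ncdn), which binds the tail of the group I receptors, had a ratio of 1.14 (1.09 to 1.18). Prkca, a protein kinase C activated downstream of phospholipase C, had a ratio of 0.909 (0.866 to 0.955). The cation channel gene Trpc1 had 400 and 337 counts, a ratio of 0.844 (0.727 to 0.976).

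Of the 8 scaffold genes that anchor group I receptors, 6 were higher and 2 lower, with a median log2 ratio of 0.09. The Shank genes, which link Homer to the postsynaptic density, had ratios of 1.11 (Shank1, 1.07 to 1.16), 1.13 (Shank2, 0.984 to 1.29) and 1.13 (Shank3, 1.06 to 1.21). Dlgap1, which bridges Shank and Dlg4, was at 1.09 (1.02 to 1.17).

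Of the 16 genes of Gi/o coupling, 11 were higher and 5 lower, with a median of 0.02. The largest ratio was that of Kcnj9, a subunit of the potassium channels opened by Gi/o, with 95.9 and 138 counts and a ratio of 1.44 (1.10 to 1.89). Its partner subunit Kcnj6 was at 1.16 (0.987 to 1.36), the G-protein alpha subunit Gnaz at 1.11 (0.951 to 1.29) and Gnai3 at 0.932 (0.876 to 0.993).

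Of the 5 binding partners of group II and III receptors, 4 were higher and 1 lower. Pick1, which binds the tail of Grm7, was at 1.16 (0.918 to 1.47). Elfn1 and Elfn2, adhesion proteins that recruit presynaptic group III receptors, were at 1.03 (0.814 to 1.30) and 1.12 (0.975 to 1.28), and the scaffold gene Grip1 was at 0.963 (0.832 to 1.11).

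Among 10 genes of desensitisation, 7 were higher and 3 lower. The receptor kinase gene Adrbk1 was at 1.14 (1.04 to 1.25), and Rgs4, which shortens G-protein signals, was at 1.14 (1.03 to 1.26). The kinase genes Grk4 and Grk6 were at 1.32 (0.927 to 1.97) and 0.878 (0.733 to 1.05). Of 9 genes of receptor-dependent synaptic depression, 7 were higher and 2 lower, with a median of 0.0049. Fmr1, which represses translation downstream of group I receptors, had 969 and 809 counts, a ratio of 0.835 (0.760 to 0.918). Eef2k was at 0.922 (0.849 to 1.00) and Map1b at 1.04 (1.02 to 1.06).

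**Figure D4:**
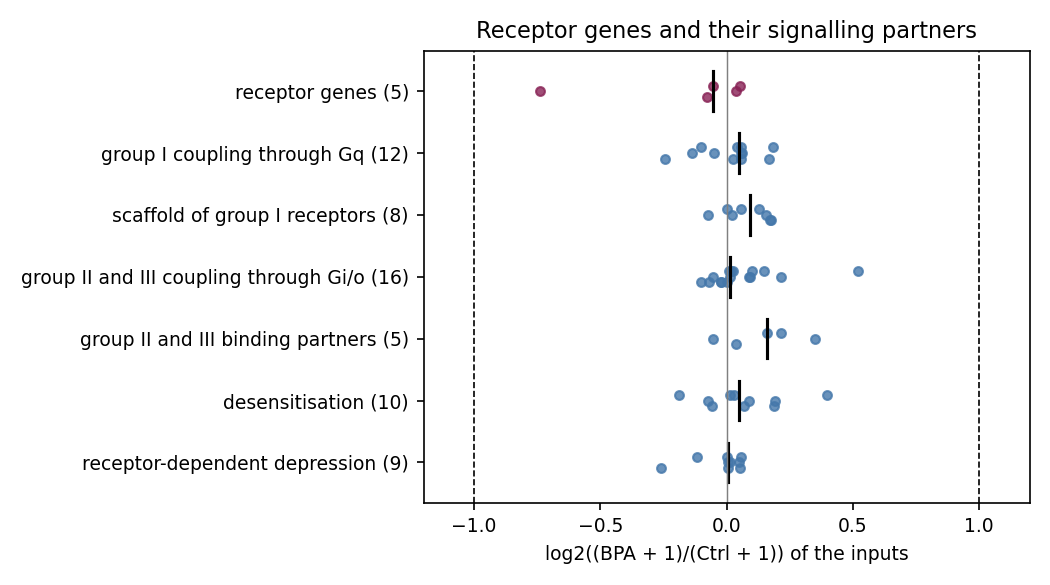
Input difference log2((BPA + 1)/(Ctrl + 1)) of the 5 receptor genes that passed the filter (purple) and of the genes of 6 signalling lists (blue), 1 point a gene, with black bars for medians and dashed lines at 2-fold. None of the points reaches 2-fold, and the lowest is Grm4 at -0.74.

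The signalling genes carried peaks too. Of the 60, 27 (45.0%) had a Ctrl peak and 31 (51.7%) a BPA peak, 24 had both, and 26 had neither. Over all genes at 1 FPKM or more in each input these shares were 30.4% for a Ctrl peak, 30.9% for a BPA peak and 64.2% for neither. That background was not matched for level. Between 16 and 32 FPKM in the Ctrl input, 37.2% of genes had a Ctrl peak and 39.2% a BPA peak. In the scaffold list 7 of 8 genes had a Ctrl peak and 7 of 8 a BPA peak, and in the Gi/o list 7 of 16 had a Ctrl peak and 7 of 16 a BPA peak. Homer1 and Plcb1, chosen here after their values were seen, held strong peaks in both: the highest fold enrichment in Homer1 was 18.5 (Ctrl) and 16.9 (BPA), from 3 peaks each, and in Plcb1 it was 13.9 and 15.2, from 7 and 6 peaks. Fmr1, Kcnj9, Pick1 and Shank2 had a peak in the BPA list alone, with scores of 10.6, 4.48, 25.0 and 12.3, each under the BPA median of 40.0. No test set these shares against those of the receptors.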

How the data were processed

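Per the submitters' processing notes, cutadapt 1.9.3, STAR and HISAT2 2.0.4 were used; their roles, the quantifier, the version of the peak caller and the build of the genome are not stated there. Each deposited input table holds 1 FPKM and 1 count per gene, per the file headers. The deposited counts behave as estimated counts multiplied by 1 factor per library: below 300, 93.7% (Ctrl) and 89.1% (BPA) of non-zero values were within 0.01 of a whole multiple of 1.01 and 1.02. The deposited peak lists give, per the file headers, a score (-10 × log10 p), a fold enrichment ratio and an FDR in percent; peaks were listed per library. Starts were taken as 0-based and printed 1 higher.

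Ratios used the counts without further scaling, with a pseudocount of 1 in log2 ratios. Ratio intervals are exact binomial and level intervals exact Poisson, at 95%, from rounded counts; reads were not tagged as molecules, so both cover counting error only. Peaks overlapped if they shared at least 1 bp. Members and lists were chosen with earlier results of these data known. Each of the 6 members was described, with up to 4 genes per signalling list of largest log2 ratio at a mean of at least 50 counts; some genes that this takes are not reported here. With 2 input libraries no genes were ranked by likeness. The ratio, interval and overlap steps were tested on simulated data. Python 3.11.15, pandas 2.3.3, numpy 2.4.6 and scipy 1.17.1 were used.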

Additional observations from a re-analysis of the deposited data

How the results depend on the processing

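Alternatives were pseudocounts of 0.1 and 5, centring, scaling to library totals, FPKM + 1, other filters, and stricter peak scores or overlaps. Of 256 alternative values, 250 kept their size within the counting interval or 1.5-fold. Some of the 250 could not have moved. Summing rows of a repeated symbol left each receptor value as it was, and stricter peak settings on 0 BPA receptor peaks could only give 0. A pseudocount cannot change the sign of a ratio. Each receptor kept its sign, with log2 ratios from -0.06 to -0.04 for Grm5, 0.03 to 0.05 for Grm7, -0.08 to -0.07 for Grm3, 0.04 to 0.06 for Grm2, -0.75 to -0.50 for Grm4 and -1.13 to -0.38 for Grm8. With no filter the median of the vascular list was 0.34 in place of 0.59, since Pecam1, with 3.03 and 4.09 counts, joined the 2 genes that passed. On FPKM + 1 the vascular and GABAergic lists had 0 genes at 2-fold in place of 1 each, as had the GABAergic list at a mean of at least 50 counts. With a score of at least 100 the Ctrl list had 0 receptor peaks and 0 receptor genes with a peak. No receptor peak was shared, so no ratio of shared peaks was computed. Rows of a repeated symbol did not occur among the receptors. No replicate could be left out. No paired analysis was possible because each group has 1 library. The median of all genes moved by under 0.1 (log2) under each scaling.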
